A study of Danio rerio with 2 samples.

Results

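The genes described here are 9 zebrafish genes of meiotic crossover formation: meiob, spata22, mcmdc2, hfm1, tex11, msh4, msh5, ccnb1ip1 and mlh3. They were chosen by name, each symbol matched 1 Ensembl identifier, and they are 9 of the 32520 genes counted in the files. The data are single-cell RNA sequencing (scRNA-seq) of dissociated testes from adult zebrafish aged 6 months, in 2 libraries called replicate 1 and replicate 2, which the study describes as biological replicates. Of the protocol notes that come with the samples, one calls the fish wild type and the other calls them transgenic without naming a transgene, and no treatment or mutant was part of the comparison. The question asked of these data is at which stage of spermatogenesis each crossover gene was expressed. The 7 stages are those of the study. SPG-Aun and SPG-Ad are type A spermatogonia before and after their differentiation, and SPG-B are type B spermatogonia. SPC-I are primary spermatocytes, in which crossovers are made. SPC-II are the cells that the study named secondary spermatocytes, the type that follows the first division. Whether the SPC-II cells had passed this division was not tested. SPT-r and SPT-e are spermatids of round and of elongated shape.

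In meiosis, programmed DNA breaks are repaired on the homologous chromosome, and some of the repair intermediates mature into crossovers that hold homologues together until the first division. The roles below are known mainly from mouse and yeast. MEIOB, a relative of the single-strand DNA binding protein RPA1, acts as a complex with SPATA22 on resected break ends, and MCMDC2 is a protein with an MCM domain that is needed for repair of these breaks in mouse. HFM1 is the DNA helicase called Mer3 in yeast, TEX11 is the counterpart of yeast Zip4, and MSH4 and MSH5 form a heterodimer that stabilises branched recombination intermediates. CCNB1IP1, also called HEI10, is a RING-domain ligase that marks future crossover sites, and MLH3 is part of the endonuclease that resolves intermediates into crossovers at pachytene, late in prophase of primary spermatocytes.

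The libraries held 3984 barcodes in replicate 1 and 5996 in replicate 2, with 8 barcode sequences in common, and 1999 and 4000 cells received a stage. A unique molecular identifier (UMI) marks each captured transcript, and UMIs were summed per stage and replicate, which gave 14 sums of between 693732 and 12370701 UMIs. The median depth of a cell lay between 1353 and 13208 UMIs per stage and was lowest in SPT-e in both replicates. Stages of replicate 1 are the labels of the study, and stages of replicate 2 were transferred from them with the 9 genes left out. The study's own clusters were formed from variable genes that may have held some of the 9, and it named SPC-I by sycp3 and pcna. The labels matched fixed markers in part. By plain totals, 5 spermatocyte markers together reached 10527 counts per 1000000 counts (CPM) in replicate 1 and 10177 in replicate 2 in SPC-I, their highest sum, and sycp3, dmc1 and smc1b were each highest there. The others were not: sycp1 stood at 1858 and 2199 CPM in SPC-I and at 4153 and 4106 in SPC-II, and pcna at 368 and 262 in SPC-I and at 1367 and 1258 in SPG-Ad. The 3 spermatid markers were highest in SPT-e, at a sum of 6683 and 6722. Of the spermatogonial markers, ddx4 and piwil1 were higher in each spermatogonial stage than in SPC-I, but e2f5, ripply2 and eno3, listed for SPG-Aun, were higher in SPC-I than in SPG-Aun. The level of e2f5 was 116 and 99.6 CPM in SPG-Aun against 542 and 484 in SPC-I, ripply2 at 92.0 and 73.6 against 341 and 242, and eno3 at 131 and 131 against 404 and 371. SPG-B was the least certain stage, since 44.9% of its labels were recovered when hidden, against 94.7% for SPC-I. The hidden labels and the cells that voted on them were all of replicate 1. This recovery therefore does not measure how well the labels passed to replicate 2. In sums of single cells, fewer cells with a transcript and fewer transcripts per cell cannot be told apart.

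Levels below are CPM after normalization by the trimmed mean of M values (TMM), given as replicate 1 and then replicate 2. A difference counts as called where edgeR's quasi-likelihood test on the 14 sums gave an adjusted p under 0.05 together with a change of more than 1 on the log2 scale. All 9 genes were among the 13993 genes with enough counts for the test.

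Primary spermatocytes held the peak of 8 of the 9 genes by TMM-normalized CPM. In SPC-I these 8 had their highest level of all 7 stages in both replicates, which was true of 7.15% of all genes tested. The same 8 were called higher there than in the other 6 stages on average, where 12.2% of all genes were called higher, and the median log2 fold change was 2.74 over the 9 genes and 0.08 over all genes. mcmdc2 led with a log2 fold change of 3.32 ± 0.14 (SE; adjusted p = 3.14e-09), followed by meiob at 3.18 ± 0.21 and msh5 at 2.90 ± 0.13. The smallest called difference was that of spata22, at 1.27 ± 0.14 (adjusted p = 6.51e-06). mlh3 was the exception, at 0.05 ± 0.19 (adjusted p = 0.88). For spata22 the highest stage depended on the scale. By plain totals replicate 2 had 644 CPM in SPC-II and 598 in SPC-I, and counted per cell both replicates were higher in SPC-II, with 4.2 and 5.22 UMIs per cell against 3.98 and 3.90.

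The share of a gene's UMIs that came from SPC-I was also read beside the share of SPC-I in all staged UMIs. This amounts to scaling by plain totals instead of TMM, and the shares depend on how many cells each stage had. SPC-I held 18.4% of all staged UMIs of replicate 1 and 17.2% of replicate 2. It held 71.1% and 71.4% of those of mcmdc2, 70.9% and 69.8% of those of meiob, and 61.0% and 62.6% of those of msh5. For spata22 the shares were 41.2% and 37.8%, and for mlh3 they were 19.2% and 17.8%, close to the share of SPC-I in all UMIs. In replicate 2, SPC-II held 16.1% of the spata22 UMIs and 6.80% of all staged UMIs.

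**Figure D1:**
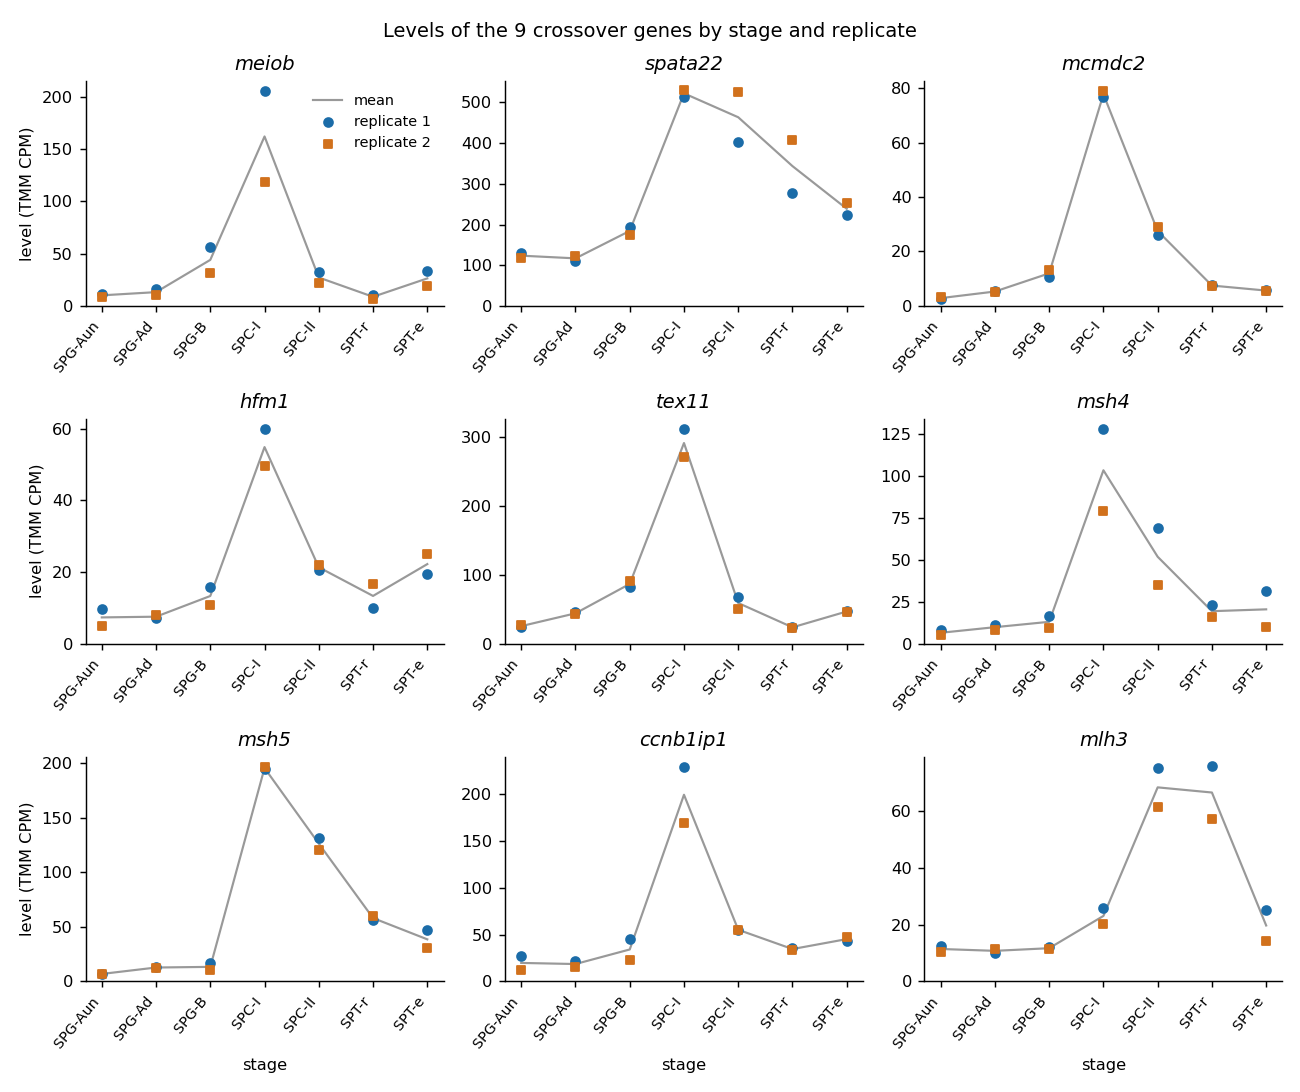
Level of each of the 9 genes (vertical axis, TMM-normalized CPM, starting at 0) in the 7 stages (horizontal axis), with a point for each replicate and a grey line through the means. On this scale all genes but mlh3 peak in SPC-I, while mlh3 stands between 57.1 and 75.9 CPM in SPC-II and SPT-r and at 25.9 CPM or less elsewhere.

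The partners on single-strand DNA, meiob and spata22, were both called higher in SPC-I than in SPG-B, and the fall into SPC-II was called for meiob and not for spata22. The difference between the genes was not tested. meiob (ENSDARG00000062442) stood at 11.2 and 8.96 CPM in SPG-Aun, at 15.8 and 10.5 in SPG-Ad and at 56.4 and 31.7 in SPG-B, and reached 205.3 and 119.0 in SPC-I. In SPC-II it was back at 32.6 and 21.7, and in SPT-r at 10.5 and 6.97. The replicates did not overlap between SPC-I and any other stage, and replicate 1 was the higher one in 7 of 7 stages. The rise from SPG-Ad to SPG-B was called (1.75 ± 0.36, adjusted p = 0.00634), as was that from SPG-B to SPC-I (1.88 ± 0.33, adjusted p = 0.000598), and the fall to SPC-II was the steepest of the 9 genes (-2.61 ± 0.35, adjusted p = 6.43e-05).

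spata22 (ENSDARG00000098537) had UMIs in most cells well before meiosis, at 129.5 and 117.3 CPM in SPG-Aun and 195.1 and 173.3 in SPG-B. It rose to 513.1 and 531.6 CPM in SPC-I (1.504 ± 0.20 on the log2 scale against SPG-B, adjusted p = 6.77e-05). It then stayed at 401.6 and 525.6 CPM in SPC-II, where the replicates overlapped those of SPC-I, and in round spermatids stood at 278.3 and 408.7, in elongated ones at 223.9 and 253.5. None of the later steps was called: the log2 fold changes were -0.17 ± 0.20 into SPC-II, -0.43 ± 0.20 into SPT-r and -0.52 ± 0.21 into SPT-e, with adjusted p of 0.556, 0.114 and 0.0752. SPC-II thus held 78.3% and 98.9% of the SPC-I level of spata22, and 15.9% and 18.3% of that of meiob.

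mcmdc2 (ENSDARG00000106560), needed for break repair in mouse, was low on both sides of SPC-I. It stood at 2.40 and 3.30 CPM in SPG-Aun, at 10.8 and 13.1 in SPG-B and at 76.8 and 78.8 in SPC-I. From there it went to 26.2 and 28.8 CPM in SPC-II and to 5.84 and 5.42 in SPT-e. The replicates lay close together and did not overlap between any of SPC-I, SPC-II, SPG-B and SPT-r. Its rise was called at SPG-B (1.18 ± 0.28, adjusted p = 0.0119) and at SPC-I (2.70 ± 0.23, adjusted p = 9.13e-07). Its fall was called at SPC-II (-1.49 ± 0.20) and again at SPT-r (-1.89 ± 0.25, adjusted p = 5.07e-05). The call at SPG-B rests on 17 and 22 UMIs in that stage and was kept in 8 of 11 other settings. Scaled by the number of cells, this rise was 0.43 on the log2 scale, where the median of all genes was -0.79.

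The genes for the helicase HFM1 and the scaffold protein TEX11 were both highest in SPC-I. hfm1 (ENSDARG00000104288) went from 15.8 and 10.8 CPM in SPG-B to 59.99 and 49.7 in SPC-I and to 20.5 and 22.1 in SPC-II. Both steps were called, with log2 fold changes of 2.04 ± 0.33 and -1.35 ± 0.30. tex11 (ENSDARG00000078995) was at 45.7 and 42.3 CPM in SPG-Ad, at 82.4 and 90.8 in SPG-B and at 311.7 and 270.2 in SPC-I. Its step from SPG-Ad to SPG-B had an adjusted p of 0.00457 with a log2 fold change of 0.98 ± 0.19, just under the fold limit, and its rise into SPC-I was called (1.75 ± 0.19). In SPC-II it had dropped to 68.0 and 49.9 CPM (-2.32 ± 0.19, adjusted p = 1.49e-06) and in SPT-r to 24.2 and 23.1.

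The MutS pair msh4 and msh5 had the largest log2 fold changes of the 9 genes at the step into SPC-I. msh5 (ENSDARG00000077479) stood at 16.5 and 10.2 CPM in SPG-B and at 194.4 and 196.5 in SPC-I, a log2 fold change of 3.88 ± 0.24 (adjusted p = 5.91e-08). It was at 131.8 and 120.7 CPM in SPC-II, where the replicates lay below SPC-I (-0.63 ± 0.19, adjusted p = 0.0211, under the fold limit), and fell to 56.1 and 59.9 in SPT-r (-1.11 ± 0.20). msh4 (ENSDARG00000075826) went from 16.5 and 9.56 CPM in SPG-B to 127.9 and 78.8 in SPC-I (2.99 ± 0.44). Later it had 68.7 and 34.9 CPM in SPC-II and 23.1 and 15.6 in SPT-r. Its fall into SPC-II only just passed (-1.03 ± 0.37, adjusted p = 0.0476) and was lost in 6 of 11 other settings of the test, and replicate 1 was higher in 7 of 7 stages. Neither gene differed by a called amount between the spermatogonial stages.

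ccnb1ip1 (ENSDARG00000104639), the HEI10 ligase, rose from 45.6 and 22.7 CPM in SPG-B to 229.7 and 169.6 in SPC-I (2.55 ± 0.35, adjusted p = 6.97e-05). It fell to 55.3 and 55.2 CPM in SPC-II (-1.85 ± 0.33, adjusted p = 0.000617). The replicates of SPC-I did not overlap those of any other stage, whereas those of SPG-Aun overlapped both SPG-Ad and SPG-B.

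mlh3 (ENSDARG00000056334), whose product acts at the resolution step, was the latest of the 9. It stood at 12.04 and 11.4 CPM in SPG-B and at 25.9 and 20.2 in SPC-I, a log2 fold change of 0.96 ± 0.29 with an adjusted p of 0.0195, just under the fold limit. In SPC-II it rose to 75.1 and 61.6 CPM (1.57 ± 0.24, adjusted p = 0.00018), and SPT-r had 75.9 and 57.1. SPC-II and SPT-r overlapped, and each lay above every other stage in both replicates. In SPT-e it had fallen to 25.3 and 14.1 CPM (-1.83 ± 0.31, adjusted p = 0.000682). These calls into SPC-II and into SPT-e were kept in 11 of 11 other settings. The rise from SPG-B into SPC-I, not called here, was called in 6 of 11.

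Step by step, the 9 genes were called as follows. From SPG-Aun to SPG-Ad edgeR called none higher or lower, against 0.829% of all genes called higher. The share of all genes called lower was not counted for this step. At an unadjusted p under 0.05 the test gave 3 higher (tex11, msh5 and mcmdc2), and DESeq2 called 0 as well. From SPG-Ad to SPG-B 2 were called higher, meiob and mcmdc2, against 3.94% of all genes. From SPG-B to SPC-I 8 were called higher, all but mlh3, against 14.1%. mlh3 was also called higher at this step in 6 of 11 other settings. From SPC-I to SPC-II 6 were called lower (meiob, tex11, ccnb1ip1, mcmdc2, hfm1 and msh4) against 11.1%, and mlh3 was called higher against 12%. From SPC-II to SPT-r 5 were called lower (mcmdc2, meiob, msh4, tex11 and msh5) against 8.95%.

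**Figure D2:**
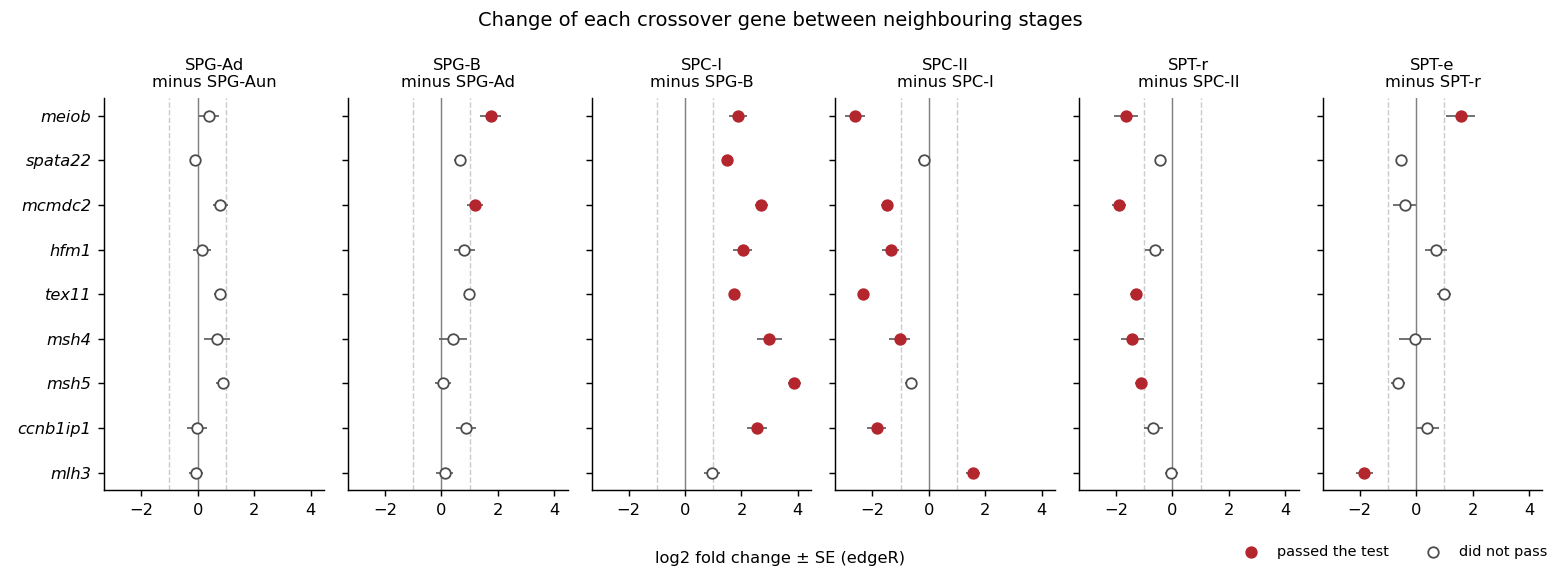
Log2 fold change of each gene (horizontal axis, with bars of 1 SE) at each step between neighbouring stages, 1 panel per step, with filled points for changes that passed the test and dashed lines at the fold limit of 1. In the step into SPC-I 8 genes lie to the right beyond the limit, and in the step into SPC-II 6 lie to the left and mlh3 to the right.

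The last step, from SPT-r to SPT-e, rests on few molecules. SPT-e held 17 and 18 UMIs of meiob and 13 and 13 of mlh3, in sums of 426 and 848 cells. mlh3 was called lower, against 7.23% of all genes, and meiob was called higher (1.58 ± 0.50, adjusted p = 0.0323), against 13.4%. The meiob call held in 3 of 11 other settings, and per cell it was 1.25 lower on the log2 scale, in a comparison in which the median of all genes was 2.63 lower. By plain totals SPT-r held 10.1 and 5.96 CPM of meiob, against 24.5 and 12.1 after the step. On the same scale 4 of the 5 spermatocyte markers (sycp3, dmc1, smc1b and pcna) also stood higher in SPT-e in both replicates, where sycp3 had 620 and 516 CPM, against 411 and 389 before it. The sum of the 5 was lower, at 4748 and 5169 CPM in round spermatids and 4033 and 3737 in elongated ones, since sycp1 went from 4150 and 4601 to 2958 and 2749. The spermatogonial marker ddx4 stood higher in SPT-e as well, at 176 and 386 CPM against 91.8 and 116. The part of these markers in the meiob result was not tested.

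SPC-I is made of 2 numbered clusters of the study, cluster 0 with 280 and 580 cells and cluster 4 with 158 and 317. Across 12798 genes outside the lists, the log2 level of cluster 0 correlated with that of SPG-B at 0.892 and 0.891 and with SPC-II at 0.804 and 0.828, while cluster 4 correlated with SPC-II at 0.926 and 0.9502 and with SPG-B at 0.771 and 0.760. These are descriptions across genes, which are not independent replicates. By this measure cluster 0 lay nearer to SPG-B and cluster 4 nearer to SPC-II.

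Within SPC-I, meiob was lower in cluster 4 than in cluster 0. It stood at 270.5 and 155.9 CPM in cluster 0 and at 103.0 and 69.7 in cluster 4 (-1.31 ± 0.36, adjusted p = 0.0118), and this was the 1 call among the 9 genes, against 7.44% of all genes called lower. edgeR called 0 of the 9 higher, against 8.3% of all genes, with 1 (mlh3) at an unadjusted p under 0.05 and 0 by DESeq2. tex11 was at 363.4 and 342.5 CPM in cluster 0 and 233.0 and 175.7 in cluster 4, with an adjusted p of 0.0385 and a log2 fold change of -0.79 ± 0.27. mlh3 was at 20.1 and 15.6 CPM in cluster 0 and 35.6 and 28.4 in cluster 4, with an adjusted p of 0.0427 and a log2 fold change of 0.84 ± 0.29. Both lay under the fold limit, and the replicates did not overlap for meiob, tex11, mlh3, hfm1, ccnb1ip1 or spata22. msh5 was near level, at 201.1 and 191.0 against 186.6 and 208.3 CPM (0.01 ± 0.27), and msh4 at 134.5 and 80.6 against 119.2 and 78.4 (-0.13 ± 0.36). Within replicate 1, labels of cluster 4 were recovered in 75.3% of cells when hidden, against 94.6% for cluster 0.

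**Figure D3:**
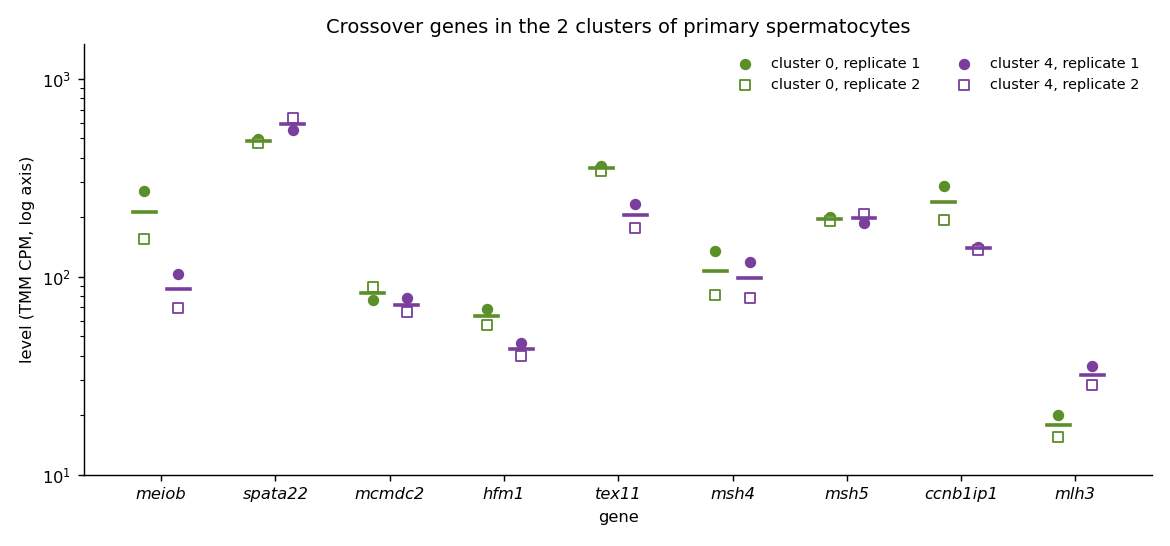
Level of the 9 genes (vertical axis, TMM-normalized CPM on a log axis) in cluster 0 (green) and cluster 4 (purple) of primary spermatocytes, with a point per replicate and a bar at the mean. meiob, tex11, hfm1 and ccnb1ip1 lie lower in cluster 4, mlh3 and spata22 lie higher, and msh4, msh5 and mcmdc2 overlap.

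Counted by cells, nearly every primary spermatocyte held at least 1 UMI of the 9 genes: 97.7% in replicate 1 and 97.1% in replicate 2, with a median of 6 and 5 of the 9 genes detected. Thinned to 1000 UMIs per cell, which left out 13 and 26 cells, the shares in SPC-I were 82.1% and 80.05%. The next highest thinned shares were those of SPC-II, at 68.1% and 66.2%. SPT-r had 40.5% and 39.95%, and SPG-B had 37.9% and 30.6%. Free RNA can give UMIs to cells that do not express a gene, and its extent was read from a Leydig-like cluster of 46 somatic cells led by insl3, star and cyp17a1, with a median of 16952 UMIs per cell. There, 28.3% of cells held a UMI of any of the 9 before thinning and 2.17% after it. The 9 genes together reached 1984 and 1704 CPM in SPC-I by plain totals and 35.6 in the Leydig-like cells.

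For single genes the shares were read against those in the Leydig-like cells. meiob was seen in 71.0% and 51.9% of SPC-I cells, tex11 in 79.7% and 73.3%, msh5 in 71.0% and 65.3% and mcmdc2 in 37.4% and 40.3%, while the Leydig-like shares of these genes lay between 2.17% and 6.52%. spata22 was seen in 89.0% and 88.3% of SPC-I cells and in 94.1% and 95.4% of SPC-II cells, with 8.70% in Leydig-like cells, and thinned shares of 42.6% and 43.4% in SPC-I and 43.0% and 48.0% in SPC-II. mlh3 was seen in 46.7% and 40.3% of SPC-II cells, in 16.2% and 12.8% of SPC-I cells and in 15.2% of Leydig-like cells. The SPC-I cells were shallower, with medians of 6349 and 5847 UMIs, so these unthinned shares could not be told apart. By plain totals mlh3 stood at 29.4 and 22.8 CPM in SPC-I, above the Leydig-like interval of 4.4 to 20.1 CPM given below. Counted per cell, however, it had 0.20 and 0.15 UMIs in SPC-I, against 0.17 in the deeper Leydig-like cells. The CPM limit therefore cannot decide whether SPC-I cells expressed mlh3. The thinned shares of mlh3 were 13.3% and 10.7% in SPC-II, 2.35% and 2.32% in SPC-I and 0% in the 46 Leydig-like cells.

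A low level could not be read as expression everywhere. mlh3 stood at 10.2 CPM by plain totals in Leydig-like cells (exact Poisson 95% interval 4.4 to 20.1, counting error only). Its 10.5 to 12.9 CPM in the 3 spermatogonial stages lay within this interval, as did its 18.7 and 8.76 CPM in SPT-e. Leydig-like cells held 8 UMIs of mlh3, 8 of spata22 and 1 of msh5. Over the 7 stages mlh3 had 458 and 742 UMIs, spata22 4236 and 9174, and msh5 1083 and 2046. Whether the mlh3 UMIs of Leydig-like cells were free RNA or transcripts of these cells was not tested. mcmdc2 stood at 2.55 CPM in Leydig-like cells (interval 0.308 to 9.2) and was not above that interval in 4 of the 7 stages: SPG-Aun (2.47 and 3.40 CPM), SPG-Ad (5.81 and 5.06), SPT-r (7.43 and 6.20) and SPT-e (4.32 and 3.37). The log2 fold change of 3.32 of mcmdc2, its called rise into SPG-B and its called fall into SPT-r rest on these levels. For meiob in SPT-r, msh4 in SPG-Aun and SPT-e, and msh5 in SPG-Aun, 1 replicate each lay under the upper bound of 7.09 CPM. hfm1 had 0 UMIs in the 46 Leydig-like cells, which allows up to 4.7 CPM by the same interval. spata22, at 10.2 CPM in Leydig-like cells (interval 4.4 to 20.1), lay above that interval by CPM in every stage. For the shallow SPT-e cells a CPM limit taken from deep cells cannot decide. The Leydig marker insl3 stood at 27.4 and 59.4 CPM in SPG-Aun and at 82.2 and 208 in SPT-e. Counted per cell, spata22 had 0.27 and 0.28 UMIs in SPT-e, against 0.17 in Leydig-like cells.

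**Figure D4:**
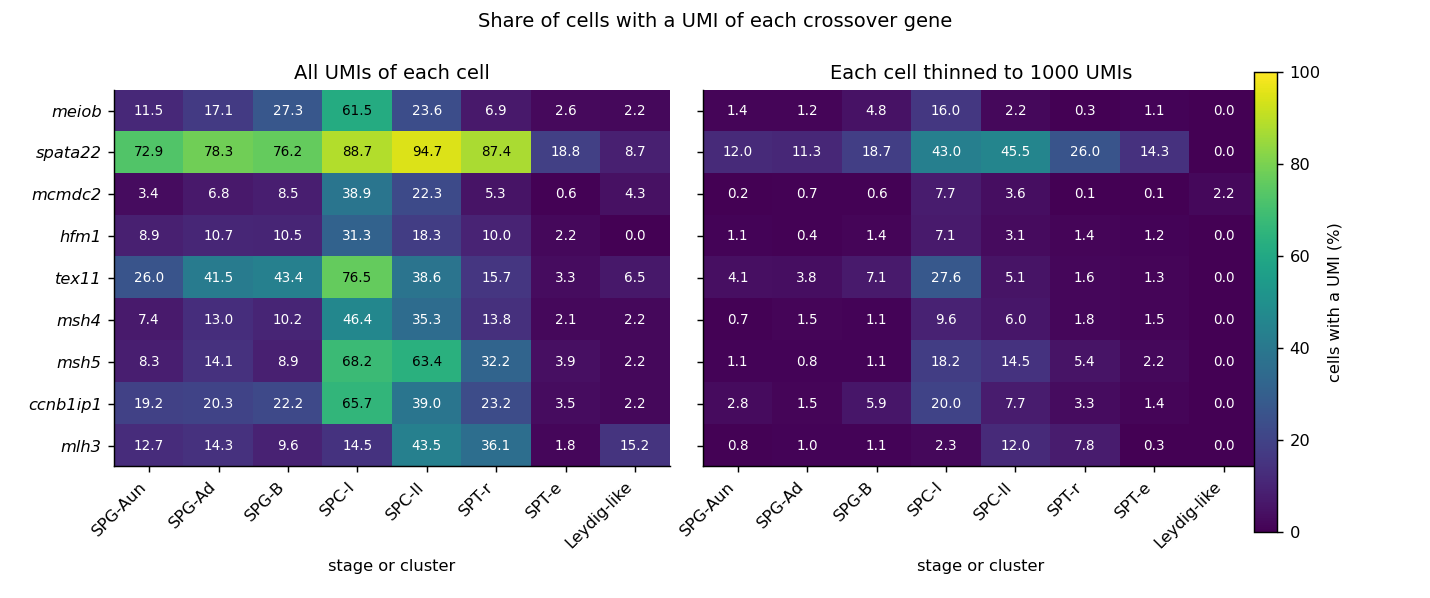
Share of cells with at least 1 UMI of each gene (colour and printed number, in percent, mean of both replicates) in the 7 stages and in the Leydig-like cluster of 46 cells, with all UMIs (left) and with each cell thinned to 1000 UMIs (right). The column of SPC-I is brightest for all genes but spata22 and mlh3, which are highest in SPC-II.

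Relatives of these genes, many of which serve mismatch repair and DNA replication, were read beside them. Of 17 listed relatives 16 were tested, and 11 were called lower in SPC-II than in SPC-I, against 11.1% of all genes. The median log2 fold change of the relatives was 0.58 in the SPC-I comparison, against 2.74 for the 9 genes and 0.08 for all genes. rpa1, the relative of meiob, stood at 222.9 and 170.1 CPM in SPC-I, fell to 42.5 and 46.6 in SPC-II (-2.13 ± 0.23), and had its highest CPM in SPT-e, at 601.7 and 599.1. This peak is one of CPM in the shallowest cells. Counted per cell, the median of all genes was 2.63 lower on the log2 scale in SPT-e than in SPT-r. msh6, a mismatch repair gene of the MutS family, was at 267.6 and 252.0 CPM in SPC-I and at 251.5 and 267.4 in SPC-II.

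pms2, a mismatch repair gene of the MutL family, fell into SPC-II, where mlh3 rose, from 17.9 and 13.5 to 3.54 and 3.20 CPM (-2.21 ± 0.49). mcm8 was highest in SPC-I, as mcmdc2 was, rising from 64.6 and 55.0 CPM in SPG-B to 184.7 and 146.3 in SPC-I and returning to 64.5 and 69.8 in SPC-II. In SPG-Aun, however, mcm8 stood at 25.8% of its highest mean level, against 3.67% for mcmdc2. The relatives mcm2, mcm3, mcm4, mcm5, mcm7 and mcm9 had their highest mean level in SPG-Aun.

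**Figure D5:**
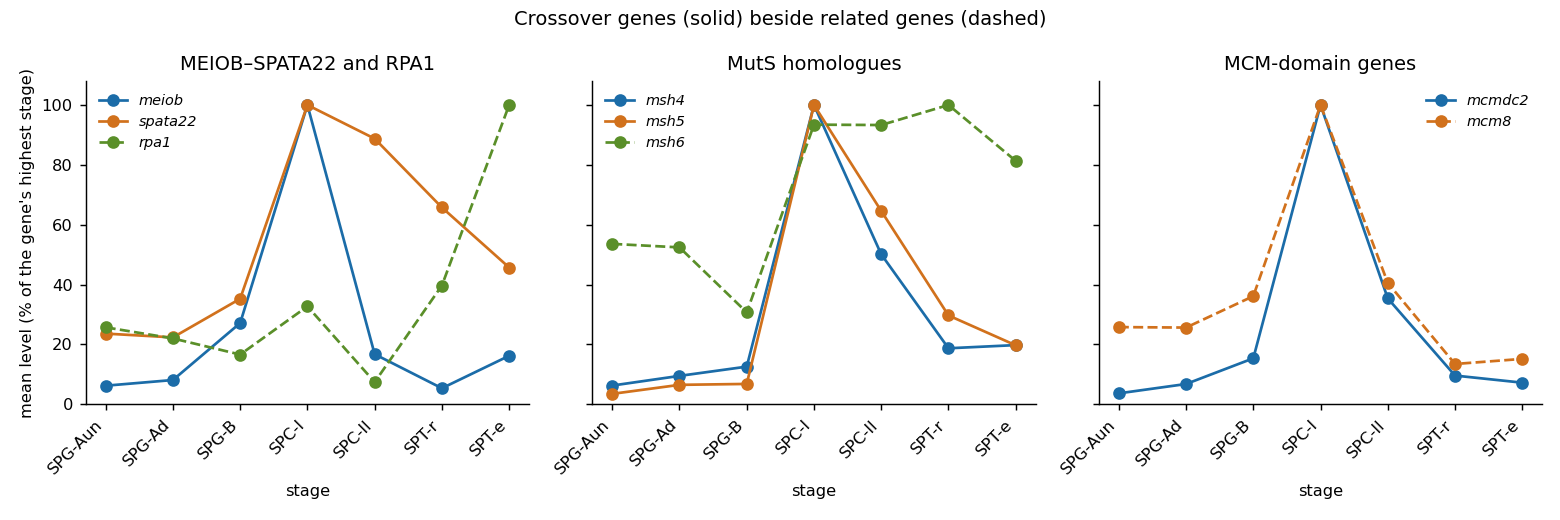
Mean level over both replicates as a percent of the gene's highest stage (vertical axis) across the 7 stages, for meiob and spata22 beside rpa1 (left), msh4 and msh5 beside msh6 (middle) and mcmdc2 beside mcm8 (right). msh6 is at 93.3% of its highest level in SPC-II, where msh4 is at 50.1% and msh5 at 64.6%.

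Other genes of the recombination pathway, taken from lists chosen with earlier results of these data known, were counted beside the 9. Of 30 other listed crossover genes 23 were tested and 11 were called higher and 2 lower in SPC-I against the average of the others, with a median log2 fold change of 0.93. Among those with the largest changes were cdk2 (2.36 ± 0.13), whose kinase is found at crossover sites in mouse, rnf212b (2.27 ± 0.17), a RING-domain protein of the crossover pathway, and shoc1 (2.32 ± 0.35), the counterpart of yeast Zip2. rnf212b stood at 73.5 and 57.4 CPM in SPG-B, at 255.8 and 252.1 in SPC-I and at 99.9 and 114.7 in SPC-II. Of the axis and synaptonemal complex genes 10 of 17 were tested and 8 were called higher, with a median of 1.75, led by the cohesin subunit gene rec8b (2.49 ± 0.14) and by sycp3 (2.24 ± 0.10). Of the break and strand exchange genes 22 of 26 were tested and 11 were called higher, with a median of 1.00, led by dmc1 (2.86 ± 0.12), the meiotic recombinase. For these comparisons the background is the 12.2% of all genes called higher, and the share called lower was not counted.

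Among the 9, the courses over the 14 sums were most alike for hfm1 and ccnb1ip1 (Pearson r = 0.964), for meiob and tex11 (0.959), for spata22 and msh5 (0.951) and for msh4 and msh5 (0.926). The pair meiob and spata22 had an r of 0.522, and mlh3 had -0.09 with tex11 and -0.03 with meiob. These are descriptions over 14 sums that share 2 libraries. The 5 genes with a symbol whose course was most like the mean of the 9 were sbds (0.964), pcm1 (0.956), the synaptonemal complex gene sycp2 (0.954), sfr1 (0.948), which supports strand exchange, and si:ch211-277c7.7 (0.947). Singly, the gene most like meiob was dmc1 (0.960), and the one most like tex11 was sycp3 (0.972). For the others they were tmcc1b for spata22 (0.981), spdya for mcmdc2 (0.977), eloca for hfm1 (0.954), cryba1l1 for msh4 (0.966), clip2 for msh5 (0.970), hdac8 for ccnb1ip1 (0.941) and si:dkey-56m19.5 for mlh3 (0.973).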

How the data were processed

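The authors made the libraries from adult zebrafish testes with a 10x Genomics single-cell kit and deposited raw UMI counts per gene and barcode, without normalization or pooling. Reads were mapped to danRer11 with Cell Ranger, version 7.2.0 per the labels and 6.1.2 per the matrix headers. The barcodes held 34153824 UMIs in replicate 1 and 52845050 in replicate 2. Gene symbols came from a reference table of names, which named 29201 of 32520 identifiers.

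Cells with 200 to 7000 genes and at most 5% mitochondrial UMIs were kept, which left 3018 and 5104. For replicate 1 the study's labels were used, of which 1999 cells were available, and the other cells of that replicate received no stage. All 1999 were found among the barcodes, and 1998 had equal UMI totals over genes seen in at least 3 cells. Cells of replicate 2 took the majority label of their 15 nearest labelled cells in 30 components of 2000 variable genes, after ComBat correction for the replicate (scanpy 1.11.5), with 119 listed genes left out. The vote also held 112 cells of replicate 1 that passed the limits above and lay within the barcode range of the labels, but had no label. They formed a class of their own, and cells of replicate 2 voted into this class received no stage. In clusters at a Leiden resolution of 0.5, 2 drew under 5% from one replicate, after each replicate was scaled to its number of cells. They held 953 cells of replicate 2 and 7 of replicate 1, and their cells of replicate 2 stayed without a stage. Doublets were kept, since no source states their removal. Scrublet marked 76 cells (2.52%) and 100 cells (1.96%), which an alternative leaves out. The Leydig-like cluster was named from fixed markers.

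The deposited counts were added up for each stage in each replicate and tested with edgeR 4.0.16 (filterByExpr, TMM, quasi-likelihood test, Benjamini-Hochberg adjustment over all 13993 genes), and per replicate and numbered cluster over 12952 genes. The SE is the fold change divided by the root of F. With 2 libraries the p-values measure the spread between these libraries. The fit has no replicate block. Sums with one replicate number come from one library, so the numbers pair them, and their deviations from the stage means correlated at 0.107 to 0.431 over 21 pairs of stages. DESeq2 1.42.0 and other settings were alternatives. The genes named are all 9, at most 4 per list by size of change in SPC-I among those called, the relatives, and the genes most alike in course. The members and lists were chosen with earlier results of these data known. Some of the listed relatives are not reported here. The stage fit was tested on simulated data for SPC-I against the other stages. The cluster fit and the steps between neighbouring stages were not.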

Additional observations from a re-analysis of the deposited data

How the results depend on the processing

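The replicate block changed no call of the 9 genes. The 8 genes called higher in SPC-I than in the other stages were called in 11 of 11 other settings. The step from SPG-Ad to SPG-B changed with the setting: 2 genes were called, but 0 when scaled by the number of cells, 1 with transferred labels in both replicates, 1 with a vote of at least 80%, 4 with no fold limit, and 5 without correction for the replicate, a setting added after seeing the data. In the step to SPT-e, 1 gene was called lower, but 2 by plain totals and 9 when scaled by the number of cells, which moved the median of all genes by -2.79 on the log2 scale. There the sign turned for meiob (-1.25), hfm1 (-2.12), tex11 (-1.85) and ccnb1ip1 (-2.43). Plain totals moved the median of all genes by -0.48 at the step into SPT-r and by 0.22 where SPC-I was set against the others. Within SPC-I, 0 genes were called higher in cluster 4, but 1 by plain totals, 1 by the number of cells and 1 with no fold limit. There 1 gene was called lower, but 2 with no fold limit, and without replicate 1 or replicate 2 between 1 and 2 passed the fold limit, with no test. For SPG-Ad against SPG-Aun this range was 0 to 1. Thinning lowered the shares of cells, for meiob in SPC-I from 61.5% to 16.0%. The shallow SPT-e sums limit what can be read at that stage.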

Other observations

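Replicate 2 held 2 clusters with almost no cells of replicate 1, which received no stage. The larger one, 794 cells, was shallow, with a median of 1474.5 UMIs per cell, against 6499 in the smaller one and 5847 in SPC-I of this replicate. In the larger cluster 36.5% of cells held a UMI of spata22, 19.5% of tex11, 13.2% of ccnb1ip1 and 11.7% of msh5, and 59.7% held a UMI of any of the 9 genes. Its 9 genes together reached 571 CPM by plain totals, against 1704 in SPC-I of the same replicate, and its summed Leydig markers reached 2925 CPM, against 110.2 in SPC-I. In the smaller one, 159 cells, 55.3% held a UMI of spata22 and 23.3% of meiob, and the 9 genes together reached 416 CPM. By plain totals spata22 stood at 259 CPM in the larger cluster and at 233 in the smaller.

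The replicates differed in the same direction at every stage for meiob and msh4, which were higher in replicate 1 in 7 of 7 stages, whereas spata22 was higher in replicate 1 in 2 of 7. In SPC-I the means were 162.1 ± 61.0 CPM (SD, n = 2) for meiob and 103.4 ± 34.7 for msh4, against 195.4 ± 1.5 for msh5 and 77.8 ± 1.5 for mcmdc2.

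The late ciliary genes, a list of 12 of which 11 were tested, were set beside mlh3, which also stood higher in SPC-II than in SPC-I. All 11 tested were called higher in SPC-II than in SPC-I, where 12% of all genes were, and their median log2 fold change was 1.504. In the step from SPT-r 8 were called higher in SPT-e, where 13.4% of all genes were, with a median of 1.02, and mlh3 had -1.83.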
